A study of Mus musculus with 16 samples.

Results

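The comparison concerns the effect of losing Erk2 in the embryonic mouse palate at embryonic day 13.5 (E13.5). It rests on the 6 arrays that the labels place at that stage, 3 mutants and 3 controls, out of 16 arrays in the series, and was made across 11116 annotated genes. The other 10 arrays are from E14.5 and enter here only through the estimate of spread and where a difference between stages is stated. RNA was hybridised to one-colour Affymetrix expression arrays. All embryos were on the C57BL/6J strain. Mutants had the genotype Erk2 fl/fl; Wnt1-Cre, in which both copies of the floxed gene can be cut by a Cre recombinase under the Wnt1 promoter, a driver active in neural crest cells. Controls were Erk2 fl/fl without Cre, so they carry the floxed alleles too, although their titles call them wild-type. Epithelium, skeletal muscle, vessel endothelium and blood cells of these embryos do not derive from the neural crest and are not the target of this Cre. The labels name palate mesenchyme tissue as the source of the RNA, the series design speaks of primary cells from it, and neither says how many embryos went into an array. The p-values therefore measure only the spread between these samples, which may be technical. The targeted gene was not analysed here, so no expression value stands behind the labelled genotypes.

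ERK2 is one of the kinases at the end of the RAS, RAF and MEK cascade, through which growth factor receptors such as those for FGF and PDGF act on transcription. Active ERK phosphorylates ETS factors and AP-1 components, and it induces its own inhibitors, the Sprouty proteins and dual-specificity phosphatases. In the palate, neural crest mesenchyme fills the paired shelves that grow down beside the tongue, rise above it and fuse, after which bone forms in them. Muscle progenitors from head mesoderm and nerves from the cranial ganglia grow in among these cells.

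At E13.5 few genes passed the test. The strongest falls in mutants were in the glutamate receptor subunit gene Gria1, the neutrophil-attracting chemokine gene Cxcl5 and the GABA receptor subunit gene Gabrb2. The anion transporter gene Slc26a7 and Commd9, which encodes a COMM domain protein, rose. With limma, 11 of 11116 genes had a Benjamini-Hochberg adjusted p under 0.05, or 0.099% of those tested. Of these 2 were higher in mutants, 0.018% of genes tested, and 9 were lower, 0.081%. An unadjusted limma p under 0.05 was reached by 1060 genes, 9.54%, with 187 higher, 1.68%, and 873 lower, 7.85%. Centred on the median of all probe sets, 20 genes passed (0.18%), 2 higher (0.018%) and 18 lower (0.162%), and all 11 were among them. Centred on the median of the tested genes, 9 passed (0.081%), 3 higher (0.027%) and 6 lower (0.054%), and 8 of the 11 were among them. Single arrays weighed on the count: it was 35 without mutant 2, 7 without control 1 and 6 without mutant 1, mutant 3 or control 3.

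Gria1, a subunit of the AMPA type of glutamate receptor, had log2 values of 4.40, 4.46 and 4.18 in mutants 1, 2 and 3 and of 5.38, 5.39 and 5.71 in controls 1, 2 and 3. All 3 mutants lay about a whole log2 unit below every control. The gene fell by 1.14 ± 0.15 on the log2 scale (SE from the fit, 3 arrays a group) and reached 0.453 times its level in controls (limma adjusted p = 0.0047). Its other probe set was at 3.70 to 4.24 in mutants and 5.15 to 5.33 in controls and differed by −1.28. Gabrb2, a beta subunit of the GABA-A receptor, had values of 4.73, 4.65 and 4.83 in mutants against of 5.27, 5.60 and 5.47 in controls. The groups stood apart, and the gene fell by 0.71 ± 0.09 (limma adjusted p = 0.0042). Gabrb2 lost its call under 1 of 17 alternative settings, a fit of the E13.5 arrays alone (limma adjusted p = 0.068). Of its 5 probe sets a further one differed by −0.72 with no overlap, while the groups overlapped on the other three, at −0.15, −0.14 and 0.19. Those probe sets were dimmer, with control means of 3.85, 4.24 and 1.44.

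Cxcl5 gave 5.22, 5.27 and 5.16 in mutants against 6.13, 6.22 and 6.16 in controls. The spread within each genotype was small beside the gap between them. It fell by 0.95 ± 0.08, to 0.516 times its level in controls (limma adjusted p = 4.1e-05). Ankrd29, which encodes an ankyrin repeat protein, was as tight, at 4.17 ± 0.05 in mutants and 4.82 ± 0.01 in controls (SD, n = 3 each), where mutant 3 was the lowest array at 4.11. Both of its probe sets were lower in every mutant, by 0.65 ± 0.05 for the one tested (limma adjusted p = 4.1e-05) and at −0.56 for the other. The calls of Gria1, Cxcl5 and Ankrd29 held under every alternative in which they were tested.

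Irx5, an Iroquois homeobox factor of craniofacial mesenchyme, had log2 values of 6.86, 6.84 and 6.63 in mutants against 7.34, 7.19 and 7.26 in controls. Mutants and controls did not overlap, and the gene fell by 0.49 ± 0.08 (limma adjusted p = 0.037). Slitrk4, a transmembrane protein with leucine-rich repeats that acts at synapses, was at 6.43, 6.34 and 6.28 in mutants against 6.75, 6.86 and 6.75 in controls. It fell by 0.44 ± 0.07 (limma adjusted p = 0.037), and its second probe set, also without overlap, differed by −0.50. Pm20d2, a peptidase of the M20 family, fell by 0.51 ± 0.08, from 5.51, 5.55 and 5.51 in controls to 4.88, 5.13 and 5.05 in mutants (limma adjusted p = 0.030). These 3 calls depended most on the settings: that of Slitrk4 was lost under 12 of 19 alternatives, that of Irx5 under 10 of 19 and that of Pm20d2 under 10 of 18.

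Cwc22, a splicing factor, gave 6.39, 6.50 and 6.30 in mutants against 6.99, 7.09 and 7.02 in controls. It fell by 0.64 ± 0.10 (limma adjusted p = 0.019), a call lost under 7 of 19 alternatives. Trim12c, a tripartite motif protein with near-identical neighbours in the mouse genome, had values of 6.31, 5.89 and 6.08 in mutants against 6.82, 6.84 and 6.69 in controls. The gene fell by 0.69 ± 0.10 (limma adjusted p = 0.0098), a call lost under 4 of 19 alternatives: without mutant 3, without control 1, without control 2 and in a fit of the E13.5 arrays alone. With the mean over its probe sets the difference was −0.41. Related copies can share probes, so a level given for Cwc22 or Trim12c may include such copies.

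Slc26a7 stood at 4.82, 4.75 and 4.82 in mutants against 4.03, 4.05 and 4.14 in controls. All mutants were above all controls, and the gene rose by 0.72 ± 0.12, to 1.65 times its level in controls (limma adjusted p = 0.037), a call lost under 7 of 18 alternatives. Its other probe set was dim, with means of 1.78 in mutants and 1.52 in controls, and overlapped, at 0.26. Commd9 had 7.33, 7.28 and 7.21 in mutants against 6.63, 6.75 and 6.64 in controls on the probe set tested, a rise of 0.60 ± 0.08 (limma adjusted p = 0.0042). Its 3 probe sets disagreed. One was lower in every mutant, at −0.17, and one overlapped, at 0.14. With the mean over the 3 the difference was 0.19 and the call was lost. The brightest probe set carries the suffix that Affymetrix gives where some probes may match other transcripts.

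**Figure D1:**
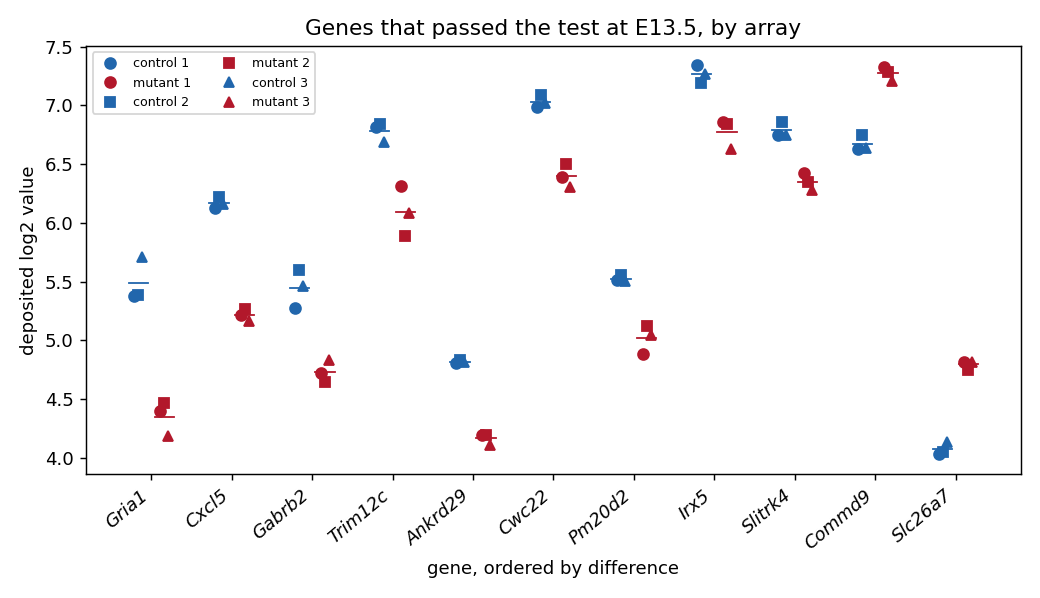
Deposited log2 values (vertical axis) of the 11 genes that passed the test at E13.5, with 1 point per array, blue for controls and red for mutants, and a line at each group's mean. For every gene the 3 red points lie wholly below or, for Commd9 and Slc26a7, wholly above the 3 blue ones, and the largest gap is that of Gria1, at −1.14.

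Beyond the genes that passed, most genes were slightly lower in mutants. As deposited, 68.5% of tested genes were lower and 31.5% higher, with a median log2 difference of −0.04 (quartiles −0.11 and 0.02). The 3 mutants did not overlap the 3 controls for 1986 genes, 17.9%: 480 were higher, 4.32%, and 1506 lower, 13.5%. Centred on the median of the tested genes, 59.2% of genes were higher and 40.8% lower, and the arrays stood apart for 2017, 18.1%, of which 1412 were higher, 12.7%, and 605 lower, 5.44%. Centred on the median of all probe sets, 80.8% were lower and 19.2% higher, and the arrays stood apart for 2796, 25.2%, with 2.41% of genes higher and 22.7% lower. The direction of a small difference thus depended on the scale. It also changed with level: genes between 4 and 6 on the log2 scale had a median difference of −0.05, those between 6 and 8 of −0.06 and those at 10 or above of −0.01. Over all probe sets those below 2 had a median of 0.04, and those between 2 and 4 of 0.06.

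Arrays of one genotype correlated at 0.994 to 0.996 over the tested genes, and pairs across genotypes at 0.992 to 0.995. Mutant 2 correlated more closely with controls 1 and 2, at 0.995 each, than with mutants 1 and 3, at 0.994 each. With control 3 it was at 0.993. Mutants 1 and 3 correlated most closely with each other, at 0.996. The median over all probe sets was 3.42 to 3.44 in mutants and 3.39 to 3.40 in controls, and the median over tested genes was 6.57 to 6.65 in mutants and 6.66 to 6.70 in controls. Neither overlapped (exact permutation p = 0.10, two-sided, the smallest that 3 against 3 allow). The gap between beta-actin probes at the 5′ end and at the 3′ end, which follows RNA integrity and labelling, was −1.01 ± 0.04 on mutant arrays and −1.19 ± 0.16 on control arrays (SD over 3 arrays each; two-sided exact permutation p = 0.20). The same gap for Gapdh did not overlap, at −0.42 to −0.36 on mutant arrays and −0.71 to −0.44 on control arrays (two-sided exact permutation p = 0.10, the smallest possible). The groups thus stood apart for this gap as they did for the 11 genes that passed. Of the 11 genes 6 passed, and no others, when the beta-actin gap entered the fit. The part of the Gapdh gap was not tested. Xist was at 10.5 to 10.9 on all 6 arrays. At E14.5 it was at 9.55 to 10.15 on mutants 1, 2 and 3 and at 9.68 on control 4. The other E14.5 arrays had it at 0.58 to 2.54. The part of this in the estimate of spread and in the comparison of stages was not tested.

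**Figure D2:**
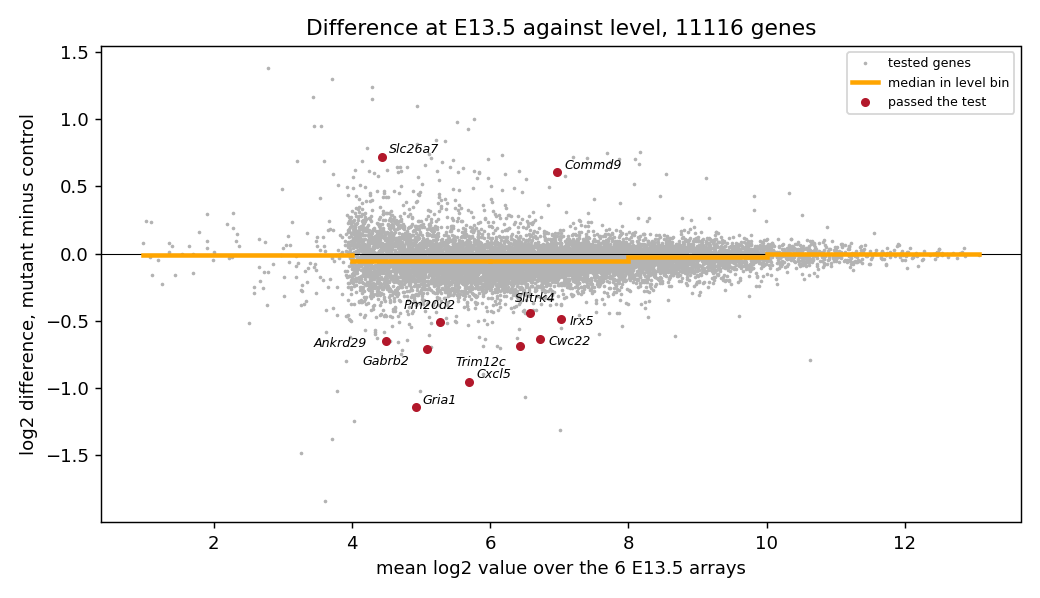
Log2 difference, mutant minus control (vertical axis), against the mean log2 value over the 6 E13.5 arrays (horizontal axis) for 11116 tested genes in grey, with the 11 that passed in red and the median in each level bin in orange. The cloud sits slightly below 0 between 4 and 8, where the bin medians are −0.05 and −0.06, and closes on 0 at 10 and above.

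Over all tested genes, those that passed included, differences of at least 2-fold were found for 16 (0.144%), 7 higher (0.063%) and 9 lower (0.081%). Those of at least 1.5-fold numbered 55 higher (0.495%) and 35 lower (0.315%). Among genes whose arrays did not overlap and that did not pass, the cerebellin gene Cbln1 was at −0.72 ± 0.22, the adhesion receptor gene Adgrb3 at −0.74 ± 0.15 and the sodium channel gene Scn3a at −0.69 ± 0.20. Acta2, smooth muscle actin, had values of 9.53, 9.28 and 9.40 in mutants against 8.89, 8.72 and 8.92 in controls, a difference of 0.56 ± 0.15. Lefty1, an inhibitor of Nodal signalling, was at 0.49 ± 0.12. Its controls, at 3.45 to 3.81, lay under log2 4, the level of the filter. Also higher without overlap were Slc15a2 and Prg4, both at 0.61 ± 0.20, Prokr2 at 0.52 ± 0.17 and Nsg2 at 0.51 ± 0.16.

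H2az2, which encodes a variant of histone H2A, was among the tightest at this stage. Its log2 values were 10.28, 10.17 and 10.23 in mutants and 10.99, 11.02 and 11.04 in controls, so that every mutant lay well below every control. The difference of −0.79 ± 0.19 missed the threshold in the fit of 16 arrays (limma adjusted p = 0.20), where the spread at E14.5 enters the error. In a fit of the 6 arrays of E13.5 alone it was −0.79 ± 0.05 and passed (limma adjusted p = 0.0044). That fit also called 11 genes (0.099%), 4 higher (0.036%) and 7 lower (0.063%), 6 of them among the 11 above: Cxcl5, Ankrd29, Gria1, Cwc22, Slc26a7 and Commd9. The others were H2az2, the gelatinase gene Mmp9 at −0.69 ± 0.05, the prostaglandin receptor gene Ptger4 at −0.62 ± 0.07, the granin gene Scg2 at 1.16 ± 0.13 and the non-coding Dlx6os1 at 0.95 ± 0.10. Apart from H2az2 and Scg2, these were named after their values were seen. On the controls Scg2 was at 2.62 to 3.06, under log2 4, the level of the filter.

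Neurotransmitter receptor genes were lower in mutants as a group. Of 6 tested subunits 2 had fallen, Gria1 and Gabrb2, against 0.081% of all genes. The list was chosen with earlier results of these data known, so these 2 calls are not separate support for the group. All 6 were below controls on each scale used, where 68.5% of all genes were lower as deposited, 80.8% centred on all probe sets and 40.8% centred on the tested genes. The median was −0.40 as deposited and −0.33 when centred on the tested genes. Gabra4, an alpha subunit of the GABA-A receptor, was at 5.92, 5.77 and 5.97 in mutants against 6.15, 6.24 and 6.40 in controls. These arrays stood apart, at −0.38 ± 0.09 (limma adjusted p = 0.20). Gria3, the third AMPA subunit, was at −0.42 ± 0.13, with mutant 2 above control 1. Gabrb1 and the kainate subunit gene Grik5 overlapped more widely, at −0.27 and −0.11. A further 15 members had a value but stayed below the level filter, so the 6 are the bright part of the family. Neuron markers were above controls in 11 of 12 cases, and in 7 of 12 without mutant 2.

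Iroquois factors, homeobox proteins that pattern embryonic tissue, were below controls in 4 of 4 tested members on each scale. Irx3, which lies in the same gene cluster as Irx5, was at 8.22, 8.13 and 8.03 in mutants against 8.57, 8.37 and 8.50 in controls. Every mutant was below every control, at −0.35 ± 0.08 (limma adjusted p = 0.17), so Irx5 was the member that passed. Irx1 and Irx2 overlapped through control 1, which stood at 3.85 and 2.99 against 5.60 to 5.64 and 4.90 to 5.06 in the other controls. Their differences were −0.13 ± 0.44 and −0.08 ± 0.57. Without control 1 the median of the family was −0.59 in place of −0.24, and without control 3 it was −0.10.

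Among chemokines, Cxcl5 was alone in passing. Of the 20 listed, 4 reached the level filter, and Cxcl12 and Cxcl16 were at 0.15 each. Cxcl14 was at 4.22, 4.61 and 5.00 in mutants against 4.36, 3.79 and 3.32 in controls, where control 1 lay above mutant 1. Its difference was 0.78 ± 0.25 (limma adjusted p = 0.37).

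Bone formation genes were lower in mutants without any single gene passing. Of 18 tested members 16 were below controls, 15 centred on the tested genes, against 68.5% of all genes as deposited, and the median log2 difference was −0.37, or −0.30 centred on the tested genes. The arrays of 7 members, 38.9%, stood apart with mutants lower: Panx3, Ifitm5, Phex, Smpd3, Alpl, Sp7 and Tnfsf11. The share over all genes was 13.5%. Panx3, a channel of osteoblasts, was at 5.50, 6.38 and 6.04 in mutants against 7.62, 7.06 and 6.44 in controls, a difference of −1.07 ± 0.30 (limma adjusted p = 0.29). Mutant 2 and control 3 were only just apart. Ifitm5, a membrane protein of mineralising osteoblasts, was at 5.05, 5.91 and 5.39 in mutants against 6.93, 6.10 and 6.00 in controls, a difference of −0.89 ± 0.25.

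Ibsp, the bone sialoprotein of mineralising matrix, gave 5.15, 7.64 and 6.28 in mutants against 8.14, 7.35 and 7.52 in controls. Mutant 2 lay within the controls while mutants 1 and 3 were far below. The difference was −1.31 ± 0.41, −0.71 without mutant 1 and −1.96 without mutant 2, and the gene passed in the last case only (limma adjusted p = 0.016). Tnfrsf11b, osteoprotegerin, followed the same order at 3.76, 5.32 and 4.33 against 5.75, 5.51 and 5.20, and was at −1.02 ± 0.31. Sp7, the osteoblast transcription factor osterix, was at −0.44 ± 0.18 and Alpl, the alkaline phosphatase of mineralising cells, at −0.44 ± 0.16. Collagen genes Col1a1 and Col1a2 were at −0.36 ± 0.17 and −0.11, with overlap.

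One bone factor went the other way. Dlx6, a homeobox gene of the lower jaw and of osteoblasts, was at 5.13, 4.88 and 4.91 in mutants against 4.39, 4.55 and 4.05 in controls. All mutants were above all controls, at 0.64 ± 0.17 (limma adjusted p = 0.24), and its partner Dlx5 was at 0.11. Per array, the mean of the bone list was 6.04, 6.44 and 6.16 in mutants and 6.77, 6.60 and 6.50 in controls, so mutant 2 was nearest to the controls. In bulk RNA fewer cells of a type and less RNA per cell cannot be told apart.

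Skeletal muscle genes were higher in mutants throughout. All 24 tested members were above controls as deposited and on both centred scales, with a median of 0.62, or 0.68 centred on the tested genes. The arrays of 20 members, 83.3%, stood apart with mutants higher, against 4.32% of all genes. Their mean on each array was 6.79, 6.48 and 6.62 in mutants and 6.19, 5.86 and 6.09 in controls. No mutant overlapped a control, and control 2 was the lowest. None of the 24 passed over all genes.

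The regulators of muscle identity and the contractile genes showed like differences. Myog, the factor that starts muscle differentiation, was at 8.20, 7.87 and 8.11 in mutants against 7.47, 7.25 and 7.23 in controls, a difference of 0.75 ± 0.36 (limma adjusted p = 0.54). Myod1, its upstream partner, was at 5.46, 5.03 and 5.24 against 4.66, 4.64 and 4.71, a difference of 0.57 ± 0.25. Every mutant was above every control for both. Ttn, the giant sarcomere protein titin, was at 0.74 ± 0.32, and Chrna1, a subunit of the muscle acetylcholine receptor, at 0.64 ± 0.34. These errors are those of the fit of 16 arrays, in which 2 of the 24 were higher at an unadjusted limma p under 0.05. Of all genes 1.68% were higher and 7.85% lower at that threshold. With the 6 arrays alone 22 of the 24 were higher at an unadjusted limma p under 0.05, against 2.96% of all genes higher, 9.97% lower and 12.9% in either direction. In that fit Myog was at 0.75 ± 0.10, and its limma adjusted p of 0.072 was the smallest of the list. The remaining members, Myf6, Pax7, Ckm and Chrnd, were below the level filter.

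**Figure D3:**
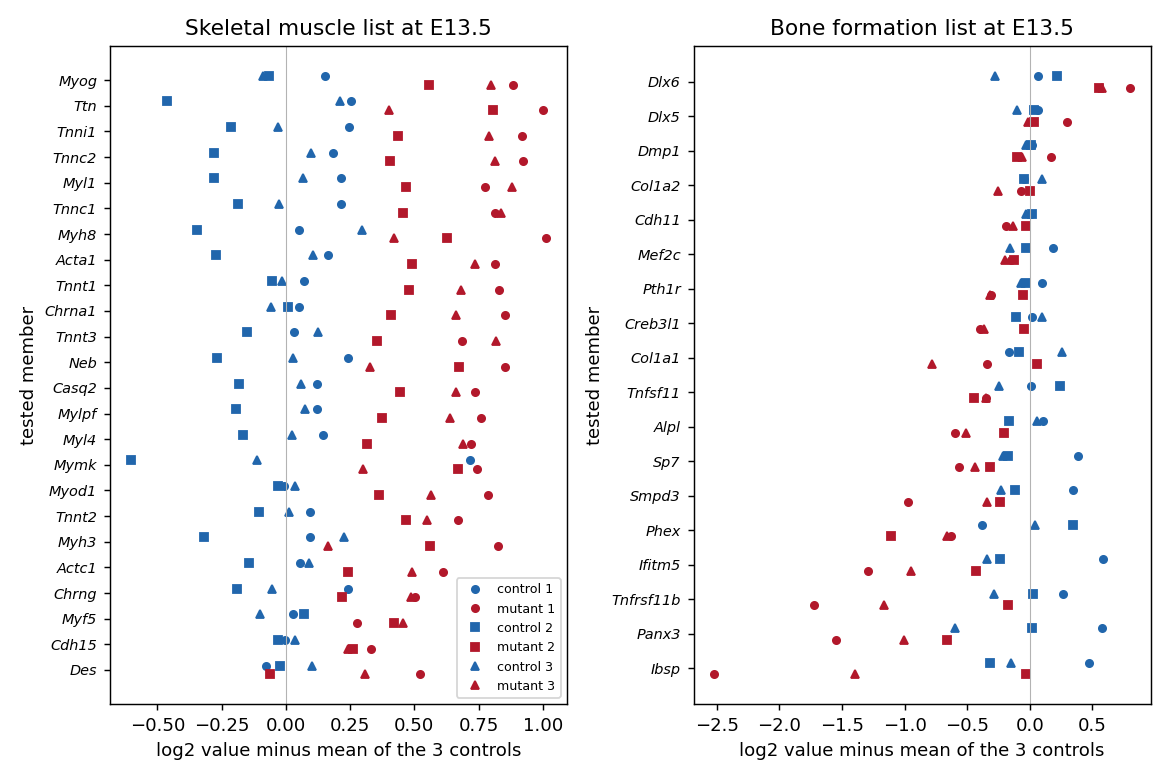
Log2 value of each array minus the mean of the 3 controls (horizontal axis) for the 24 tested skeletal muscle genes on the left and the 18 tested bone formation genes on the right, blue for controls and red for mutants. On the left 20 genes have all red points to the right of the blue ones. On the right most red points lie left of 0, with mutant 1 farthest out for Ibsp, Tnfrsf11b and Panx3.

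Cartilage markers were higher in most cases but varied within the controls. Of 13 tested members 9 were above controls, with a median of 0.40, and the list mean was 6.12, 6.47 and 6.31 in mutants and 5.67, 6.31 and 5.68 in controls. Control 2 stood with the mutants. Epyc, a small proteoglycan of young cartilage, was at 4.24, 4.06 and 4.77 in mutants against 2.59, 3.92 and 2.66 in controls, a difference of 1.30 ± 0.36 (limma adjusted p = 0.29). On all 3 controls Epyc lay under the filter level of log2 4, which only mutants reached at E13.5. Matn1 and Cnmd, both cartilage matrix genes, were at 1.10 ± 0.28 and 1.00 ± 0.33 and overlapped through control 2. Without control 2 the median was 0.58 and 2 members passed, Cnmd and Matn4. Without control 1 the median was 0.26. Sox6, a transcription factor of chondrocytes, was lower on every mutant array, at −0.30 ± 0.08, and Col2a1, the main cartilage collagen, was at 0.30 ± 0.23.

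Neuron markers were higher chiefly on one array. The list mean was 5.10, 5.81 and 4.84 in mutants and 4.77, 4.98 and 4.75 in controls, with 11 of 12 members above controls and a median of 0.24. Stmn2, a microtubule regulator of growing axons, was at 4.95, 6.77 and 4.74 in mutants against 5.00, 4.89 and 4.34 in controls. Without mutant 2 the median was 0.07 and 7 of 12 members were higher. Scg2, a granin of secretory neurons, was the exception with all mutants above all controls, at 3.82, 4.17 and 4.07 against 2.62, 3.06 and 2.89, a difference of 1.16 ± 0.44 (limma adjusted p = 0.43). On all 3 controls Scg2 lay under the filter level of log2 4, which only mutants 2 and 3 reached at E13.5.

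Other cell types showed smaller differences. Oral epithelium markers had a mean of 7.11 to 7.22 in mutants and 7.13 to 7.37 in controls, with 17 of 20 lower as deposited and 8 of 20 centred on the tested genes. No member's arrays stood apart. Endothelial markers were at 5.92 to 6.07 in mutants and 6.01 to 6.09 in controls, macrophage markers at 5.26 to 5.44 and 5.27 to 5.40. Schwann and crest glia markers were higher in 6 of 8 cases, with a median of 0.13. The arrays held signal of mesenchyme markers, such as Col3a1 at 12.2 in controls, and of epithelium, vessel, blood, muscle, nerve and cartilage markers. The share of each cell type was not estimated. Muscle genes were above controls on all mutant arrays. Cartilage means overlapped through control 2, and neuron means through mutant 3 and control 2. The part of these lists in the other gene groups was not tested.

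Mesenchymal identity genes were lower by small amounts. All 13 palate mesenchyme markers were below controls as deposited and 11 of 13 centred on the tested genes, with medians of −0.12 and −0.06. Osr2, a zinc finger factor required for palate growth, was at 6.06, 5.84 and 5.91 in mutants against 6.18, 6.15 and 6.42 in controls. The groups were apart, at −0.32 ± 0.09 (limma adjusted p = 0.32). Prrx2, a homeobox factor of facial mesenchyme, was at 8.13, 8.14 and 8.17 against 8.39, 8.32 and 8.33, a difference of −0.20 ± 0.05 (limma adjusted p = 0.21). Both are among the genes by which palatal mesenchyme is recognised.

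Of 36 palatal transcription factors 27 were lower as deposited and 25 centred on the tested genes, against 68.5% and 40.8% of all genes. Foxf1, a forkhead target of Hedgehog signalling, was at 8.10, 7.94 and 8.09 in mutants against 8.42, 8.27 and 8.65 in controls, a difference of −0.41 ± 0.09 (limma adjusted p = 0.17). Every mutant was below every control. Lhx6, a LIM homeobox factor of the facial processes, was at −0.43 ± 0.17 and overlapped. Foxd1 was on the other side, with mutants above all controls at 0.26. Matrix genes were mixed: of 38 tested, 29 were lower as deposited and 22 centred on the tested genes. The arrays of 3, 7.9%, stood apart with mutants higher, against 4.32% of all genes. Those of 5, 13.2%, stood apart with mutants lower, near the 13.5% of all genes. Fbln5, an elastic fibre protein, was above all controls at 0.26 ± 0.09. Lox, a collagen cross-linking enzyme, was too, at 0.16 ± 0.05, but overlapped centred on all probe sets. Has2, which makes hyaluronan, was below all controls at −0.25 ± 0.10 and on both centred scales.

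Within the pathway itself no gene passed. Of 21 tested RAS, RAF and MEK genes 15 were lower as deposited and 9 centred on the tested genes. Braf, a RAF kinase, was at −0.26 ± 0.12 and Rps6ka3, the kinase RSK2 that ERK activates, was lower on all mutant arrays, at −0.14 ± 0.06. Feedback inhibitors and targets of ERK were lower in 20 of 22 cases as deposited, in 9 of 22 centred on the tested genes and in 10 of 22 with the beta-actin signal as a term. Their medians on the first pair of scales were −0.06 and 0.01. The direction of this list thus flipped with the scale.

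Single targets differed more than the list. Fosl2, an AP-1 component, was at 7.35, 7.48 and 7.21 in mutants against 7.79, 7.63 and 7.72 in controls. All mutants were lower, at −0.37 ± 0.09 (limma adjusted p = 0.21). Egr1, an immediate early factor, was at 6.66, 6.09 and 6.46 against 6.66, 6.85 and 6.96, a difference of −0.42 ± 0.14. Dusp6 and Spry2, feedback inhibitors often read as a measure of ERK output, were at −0.06 ± 0.14 and −0.05 ± 0.07 and overlapped. Etv5, an ETS factor induced by FGF, was higher on every mutant array, at 0.12 ± 0.10.

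Growth factor families upstream of ERK also had no call. Fgf10, which mesenchyme sends to epithelium, was at 4.05, 4.10 and 4.16 in mutants against 4.53, 4.38 and 4.33 in controls. It lay below all controls, at −0.31 ± 0.09 (limma adjusted p = 0.29). Fgf4 was above them at 0.24 ± 0.06, and of 10 FGF genes 6 were higher, or 5 centred on all probe sets. Controls had Fgf4 at 3.73 to 3.92, under the filter level of log2 4. Pdgfd, a PDGF receptor ligand, was at −0.53 ± 0.16 with all mutants lower. In the Hedgehog pathway 9 of 12 genes were lower, 8 centred on the tested genes, and Ptch1, receptor and target of the pathway, was lower on every mutant array. That difference was −0.21 ± 0.06 (limma adjusted p = 0.29). The WNT potentiators Rspo1 and Rspo3 stood apart at −0.38 ± 0.09 and −0.36 ± 0.11, Bmp5 was at 0.47 ± 0.16, and the Eph receptor gene Epha4 was lower on all mutant arrays, at −0.28 ± 0.08.

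The study asked about metabolism. Cholesterol synthesis genes were all lower as deposited, 20 of 20, and 16 of 20 centred on the tested genes, with medians of −0.12 and −0.05. The arrays of 10, 50.0%, stood apart with mutants lower, against 13.5% of all genes. Hmgcs1, which makes the precursor of mevalonate, was at 10.49, 10.43 and 10.43 in mutants against 10.58, 10.60 and 10.72 in controls. Every mutant was below every control, by a small margin, and the difference was −0.19 ± 0.05 (limma adjusted p = 0.23). Mvd, a later enzyme of the mevalonate branch, was at 5.66, 5.52 and 5.44 against 5.78, 5.77 and 6.02, a difference of −0.32 ± 0.10 (limma adjusted p = 0.37). Dhcr7, which makes cholesterol from its last precursor, was at −0.28 ± 0.10, while Fdps, which joins isoprene units, was at −0.02.

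Among glucose and fatty acid genes none passed, and the medians were −0.08 and −0.07 as deposited and −0.02 and 0.00 centred on the tested genes. Of 19 glycolysis genes 18 were lower as deposited and 12 centred on the tested genes, against 68.5% of all genes lower as deposited. The arrays of 8, 42.1%, stood apart with mutants lower, against 13.5% of all genes. Aldoc, an aldolase, was at 6.02, 5.47 and 5.84 in mutants against 6.32, 6.15 and 6.38 in controls, at −0.51 ± 0.13 (limma adjusted p = 0.24). Pfkfb3, which makes an activator of glycolysis, was at 4.69, 4.68 and 4.53 against 5.03, 5.03 and 4.87, at −0.34 ± 0.10. Both stood apart, while Gapdh and Pgk1 of the same pathway were at −0.02 and −0.01. In fatty acid synthesis 21 of 27 genes were lower as deposited, near the share of all genes, and 16 centred. Fasn, the fatty acid synthase, was at −0.31 ± 0.10, and Lpin1, which makes the diglyceride precursor, at −0.64 ± 0.24, both with mutants below all controls.

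Respiratory chain genes stood near 0 as deposited. Of 32 complex I genes 18 were higher, 30 were higher centred on the tested genes, and 25 were lower centred on all probe sets. The widest difference among them was that of Ndufa5, at −0.09 ± 0.06. In complexes III to V 18 of 34 were higher as deposited and 33 centred, and in the tricarboxylic acid cycle 13 and 21 of 25. Of 31 cell cycle genes 16 were higher as deposited, 22 centred on the tested genes and 8 centred on all probe sets, with the cyclin gene Ccnd2 at −0.14 ± 0.05 and the inhibitor gene Cdkn1a at 0.29 ± 0.15. Of 18 genes of serine, one-carbon and ATF4 metabolism 15 were lower, among them Asns, asparagine synthetase, at −0.20 ± 0.07.

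**Figure D4:**
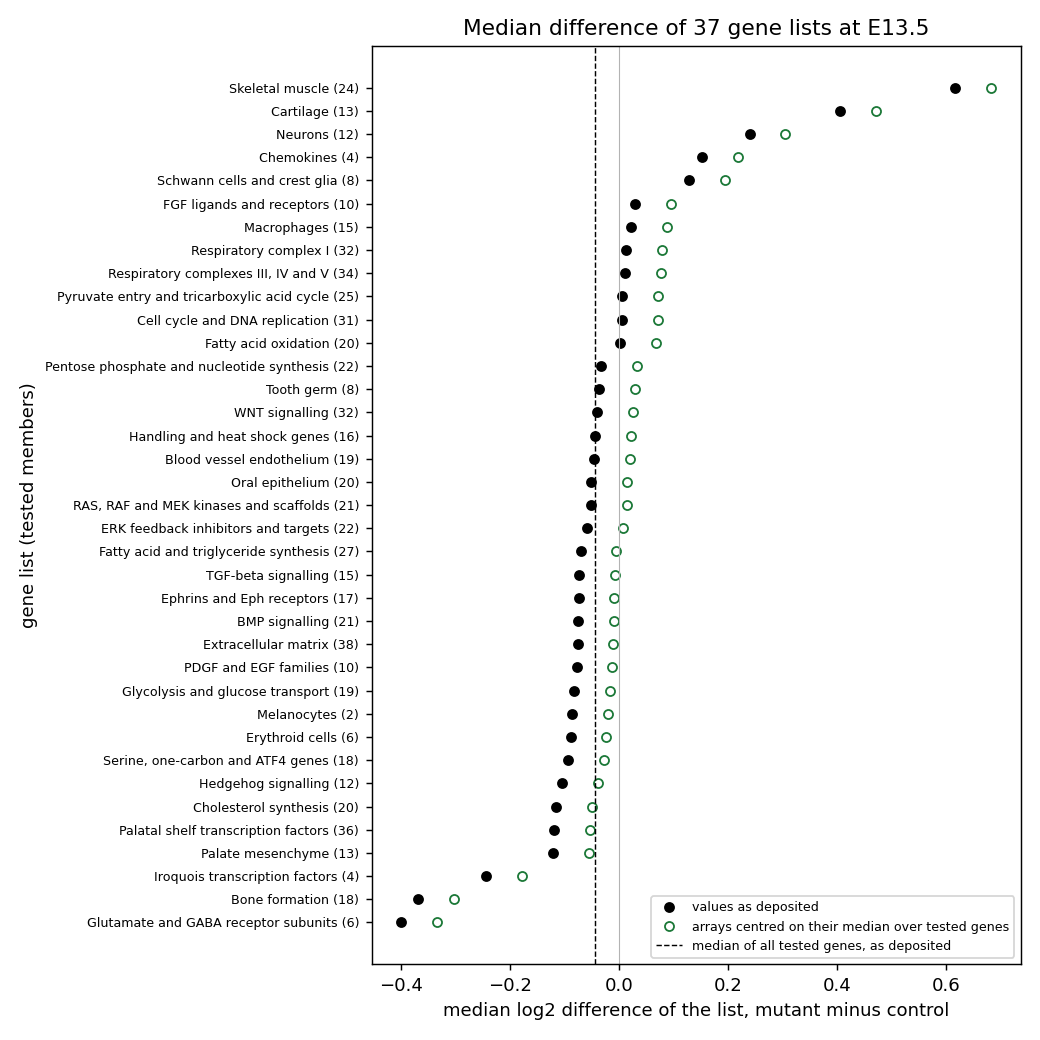
Median log2 difference (horizontal axis) of 37 gene lists, with the number of tested members in brackets, as deposited (filled) and with arrays centred on their median over tested genes (open). The dashed line marks the median of all tested genes, −0.04. Muscle at 0.62, cartilage, bone at −0.37 and the receptor subunits at −0.40 lie far from it on both scales, while most signalling and metabolic lists lie close to it.

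Promoters are shown for 1 gene each from the cholesterol and muscle lists, whose members differed together, so that the letters sought can be seen in place. Each run is the 250 bases before the start in RefSeq (GRCm38.p6), 5′ to 3′ on the strand of the gene. In Hmgcs1 (chr13:119690101-119690350, plus strand) the capitals mark CACNCCAC, a core seen in sterol response elements, once, and ATTGG, the CCAAT box read backwards, 3 times, each on either strand. In Chrna1 (chr2:73580339-73580588, minus strand) they mark CAGCTG, the E box letters bound by MYOD1 and MYOG, at 2 places. The marked matches do not overlap.
Hmgcs1: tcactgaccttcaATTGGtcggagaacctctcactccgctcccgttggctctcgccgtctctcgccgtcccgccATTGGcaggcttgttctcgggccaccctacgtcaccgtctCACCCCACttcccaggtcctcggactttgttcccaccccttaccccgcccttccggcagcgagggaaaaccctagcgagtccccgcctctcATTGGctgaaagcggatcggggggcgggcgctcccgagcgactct
Chrna1: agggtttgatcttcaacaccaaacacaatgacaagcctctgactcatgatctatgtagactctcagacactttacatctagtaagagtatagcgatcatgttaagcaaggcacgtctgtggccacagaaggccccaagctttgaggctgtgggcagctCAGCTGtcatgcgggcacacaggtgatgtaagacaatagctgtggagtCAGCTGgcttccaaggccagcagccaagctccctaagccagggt

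Each motif was sought on both strands in the 250 bases before every start. ATTGG was present for 16 of 17 cholesterol genes in the table, 94.1%, and for 37.5% of all genes. CACNCCAC was present for 2 of the 17, Hmgcs1 and Insig1, or 11.8%, for 3 of 20 muscle genes, 15%, and for 6.05% of all genes. CAGCTG was present for 8 of 20 muscle genes, 40%, and for 14.7% of all genes. These 3 motifs were chosen after the differences were known. Of the 11 genes that passed, 5 were in the table, with 7 promoters: Cwc22, Commd9, Pm20d2, Trim12c and Gabrb2. None of the 7 held the ETS core CCGGAAG or the AP-1 letters TGACTCA, which 6.91% and 4.46% of all promoters hold. With shares this low, 7 promoters cannot show a lack of either. Each was present for 2 of the 17 cholesterol genes, 11.8%, against 7.83% and 5.16% of all genes. Of 20 muscle genes 0 held the ETS core and 1 held the AP-1 letters. The ETS core of Hmgcs1 and the AP-1 letters of Chrna1 are left unmarked in the runs shown. A match describes letters only and is not a binding site.

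The same genes were looked up at E14.5, which shares no arrays with E13.5. The difference between the 2 effects passed for 4 of the 11 genes, Ankrd29, Commd9, Cwc22 and Cxcl5, and for 13 of all genes, 0.117%. At E14.5 Cxcl5 was at −0.26, Ankrd29 at −0.10, Commd9 at 0.05 and Cwc22 at 0.10. For Irx5 and Slitrk4 the E14.5 differences were −0.38 and −0.48, close to those at E13.5. Gria1 was at −0.37 at E14.5, and the difference between its effects, −0.77 ± 0.19, did not pass (limma adjusted p = 0.15). The 24 muscle genes were all higher at E14.5 too, with a median of 0.46, and 17 of 18 bone genes were lower, with a median of −0.41. Not every list kept its direction. At E14.5, 17 of 22 ERK feedback inhibitors and targets, 13 of 20 cholesterol genes and 20 of 20 oral epithelium markers were higher. Over all tested genes 6226 of 11116 were higher. Iroquois factors were split at 2 higher and 2 lower, while 4 of 6 receptor subunits and 11 of 13 palate mesenchyme markers were lower.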

How the data were processed

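Affymetrix arrays of 16 palate samples were used. The deposited log2 values of 45101 probe sets were made by the authors with GCRMA, per the submitters' processing notes. Not given in the sources used here are its version, its settings and whether it ran on both stages together. The platform annotation named 1 gene for 34958 probe sets, several for 932 and none for 9211. The probe set with the highest mean stood for its gene, which gave 18194 genes. Of these 11116 had a log2 value of at least 4 on 3 or more of the 16 arrays.

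One limma 3.58.1 fit (R 4.3.3) held 4 groups and the labelled E14.5 batch, with 11 residual degrees of freedom, and the contrast used E13.5 arrays only. E13.5 arrays carry no batch label. Same-numbered arrays deviated together at −0.17, 0.17 and −0.08, so numbers were not taken as pairs. Mutant 1 with control 3 and mutant 3 with control 1 were at 0.21 each, and the remaining pairs at −0.13 to −0.04. A matching in that other order was not tested. Of 37 gene lists, counts and medians were given with no set test. Named genes were those that passed, the 10 largest differences each way without overlap at an unadjusted p under 0.01, and per list up to 2 members with the smallest p and the widest difference. Other members were named after their values were seen. The genes, lists and comparison were chosen with earlier results of these data known. Alternatives covered scale, filter, probe set, normalization, variance, batch, pairing, actin signal and each array left out. The fit was tested on simulated data. Figures used Python 3.11.15 and matplotlib 3.10.9. For arrays, their number limits the precision.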

Additional observations from a re-analysis of the deposited data

Results flagged for a closer look

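For 4 genes the difference between genotypes at E13.5 was not the same as at E14.5 by a test of that difference over all 11116 genes (limma, 3 and 3 arrays at E13.5, 5 and 5 at E14.5). The E13.5 effect minus the E14.5 effect was −0.70 ± 0.10 on the log2 scale for Cxcl5 (limma adjusted p = 0.015), −0.74 ± 0.12 for Cwc22 (0.037), −0.55 ± 0.07 for Ankrd29 (0.0073) and 0.56 ± 0.10 for Commd9 (0.042). On each centred scale, and with the mean over probe sets, 3 genes passed. The stages differ in the distribution of their deposited values, and the part of that in these differences was not tested.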

How the results depend on the processing

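Of 82 named genes 81 kept their direction under every alternative in which they were tested, 17 to 19 for each. For Sufu the value turned to 0.0105 when its probe sets were averaged, from −0.26 on the brightest. The medians of 20 of 37 lists kept their sign. The count of 11 genes was 20 with arrays centred on all probe sets, 20 without the batch term, 85 with array weights and 6 when the beta-actin gap entered the fit, and ranged from 6 to 35 with each E13.5 array left out in turn. The count of 20 on the scale centred on all probe sets was 9 centred on the tested genes, an alternative added after the data were seen. The cause of these changes was not tested. With the replicate number within stage as a block 6 genes passed, all among the 11, but the numbers do not pair the samples. Genes at low signal, under 4 on the log2 scale, were mostly not tested.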

Other observations

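Some genes varied widely between arrays of one genotype. They were picked with their values known. The pooled standard deviation within genotype had a median of 0.08 over tested genes and a 95th percentile of 0.21. S100a8 and S100a9, which encode the calprotectin subunits of neutrophils, were at 5.21 and 4.94 in control 1 and at 5.48 and 5.48 in control 2. In control 3 they were at 2.90 and 2.77, and the mutants lay at 2.43 to 2.90 and 2.86 to 3.10. Both genes were thus high on the same pair of arrays. Galc, a lysosomal enzyme, was at 4.26, 1.84 and 4.54 in mutants against 1.94, 2.01 and 4.62 in controls, so its high and low arrays crossed the genotypes.

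Mutant 2 was high for several neuron genes at once, with Stmn3 at 6.36, Stmn2 at 6.77 and Elavl4 at 5.28. The other mutants were at 3.92 to 4.33, 4.74 to 4.95 and 2.79 to 3.70.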
